A study of Mus musculus with 6 samples.

Results

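The uptake of fat from the blood was followed through 10 genes in epididymal white adipose tissue (eWAT, the fat pad beside the epididymis): Lpl, Gpihbp1, Lmf1, Angptl4, Cd36, Slc27a1, Fabp4, Fabp5, Acsl1 and Vldlr. They were picked by name, and each was represented by the array row that names it alone and has the highest mean signal. Of the 10 genes, 9 had such a row, among 22184 genes and 41345 rows in all, and Acsl1 is not analysed here. The arrays compared 3 wild-type (WT) male C57BL/6 mice with 3 male C57BL/6 mice that carry Blnc1, a long noncoding RNA, as a transgene in adipose tissue (Tg), all aged 8 months and all fed the high-fat diet D12492 for 21 weeks. No array came from mice on another diet, and the promoter that drives the transgene and the number of founder lines are not given in the sources used here. Each array was taken as 1 mouse (WT 1 to WT 3, Tg 1 to Tg 3), since the labels call the replicates biological.

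Adipocytes take up fat from the blood in steps. Triglyceride-rich lipoproteins are split at the capillary wall by lipoprotein lipase, which adipocytes make, fold with the help of lipase maturation factor and pass to endothelial cells, where GPIHBP1 carries it across to the vessel lumen and holds it there. Angiopoietin-like proteins switch the lipase off, VLDL receptor binds the lipoproteins, CD36 and the FATP proteins help fatty acids across the membrane, and fatty acid binding proteins and acyl-CoA synthetases receive them inside the cell.

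Of the 9 genes, 2 had all Tg arrays above all WT arrays, Vldlr and Lmf1, as did 8.85% of all genes by their brightest row. The gap in Lmf1 was only 0.03, and neither gene passed the test given below. In Cd36, the scavenger receptor that takes up fatty acids, the groups were interleaved. The 250 bases upstream of a RefSeq start of these 3 genes (assembly GRCm38.p6, printed 5′ to 3′ on the gene's strand) are shown to set the promoters of the genes with separated groups beside one whose groups were not. Capitals mark matches to AGGTCA, the half-site of nuclear receptors such as PPARγ, or to CCAAT, on either strand. Vldlr lies on the plus strand (chr19:27216234-27216483), Lmf1 on the plus strand (chr17:25578924-25579173) and Cd36 on the minus strand (chr5:17835897-17836146).
Vldlr: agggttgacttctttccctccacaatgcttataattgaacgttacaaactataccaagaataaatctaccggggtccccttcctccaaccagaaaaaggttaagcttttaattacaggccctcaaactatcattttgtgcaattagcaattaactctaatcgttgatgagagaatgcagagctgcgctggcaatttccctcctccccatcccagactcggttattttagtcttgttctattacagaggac
Lmf1: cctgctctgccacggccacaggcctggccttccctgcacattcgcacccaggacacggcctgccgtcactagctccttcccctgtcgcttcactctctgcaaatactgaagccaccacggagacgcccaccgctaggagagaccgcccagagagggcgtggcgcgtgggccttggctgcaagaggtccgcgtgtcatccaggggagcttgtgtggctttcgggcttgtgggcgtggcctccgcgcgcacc
Cd36: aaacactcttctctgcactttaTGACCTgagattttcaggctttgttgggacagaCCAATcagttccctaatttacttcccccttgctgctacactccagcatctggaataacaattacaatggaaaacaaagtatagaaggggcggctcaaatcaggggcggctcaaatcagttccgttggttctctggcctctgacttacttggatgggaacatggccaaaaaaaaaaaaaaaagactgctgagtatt

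The full table windows, with 250 bases before and 50 after the start, were searched on both strands for AGGTCA, for the DR1 element (a direct repeat of AGGTCA with 1 base between, which holds AGGTCA itself), for TATAAA and for CCAAT. The Cd36 window held 1 AGGTCA at position -228 on the opposite strand and 1 CCAAT at -195, and the Vldlr and Lmf1 windows shown held none of the 4 motifs. Among all 32851 promoter windows of 300 bases, 16.3% held AGGTCA, 37.4% CCAAT, 13.6% TATAAA and 0.0396% the DR1 element. The other window of Vldlr held 1 CCAAT at -78. G and C made up 66.3% of the Lmf1 window, 43.0% of the Cd36 window, and 43.0% and 68.0% of the Vldlr windows shown and not shown, against a median of 52.7%. Matches describe these letters only. Of the 10 genes, 5 had an entry in the promoter table. Slc27a1, whose groups overlapped like those of Cd36, had 3 windows with 0 AGGTCA in each, and CCAAT at -188 in 1 and at -128 in another. Whether motifs go with the separation of groups was not tested.

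No member passed the test of Tg against WT. In limma, with Benjamini-Hochberg adjustment across the 41345 rows, 0 of 9 members and 0.0% of rows had an adjusted p of 0.05 or below. Vldlr alone among the 9 had an unadjusted p under 0.05, where 10.3% of all rows had one, 4.43% with a higher and 5.88% with a lower value in Tg (5.31% and 4.52% of genes by their brightest row). Groups did not overlap, with Tg higher, in 2 of the 9 members, against 7.36% of all rows and 8.85% of genes by their brightest row; they were apart with Tg lower in 0 members and 9.35% of rows (in either direction, 16.7% of rows and 18.2% of genes). Without WT 1 the members apart with Tg higher numbered 5, where 14.0% of all rows were, and without Tg 2 they numbered 4, where 13.8% were; separation is easier with fewer arrays. The median Tg minus WT difference of the 9 was 0.10 on the log2 scale, and that of all rows was -0.01. Differences ran from 0.00 for Fabp5 to 0.54 for Vldlr, and 8 of the 9 were above 0, where 47.2% of rows were. With 3 arrays in each group, precision is limited by their number.

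**Figure D1:**
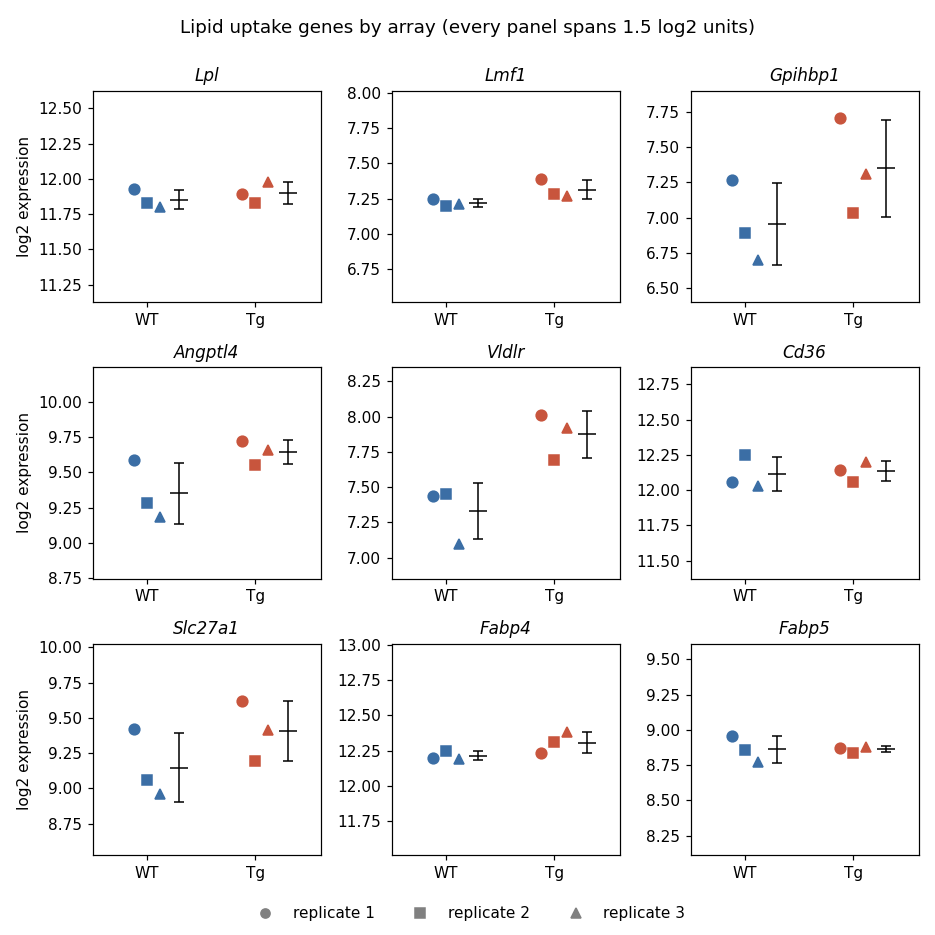
Deposited log2 expression of the 9 measured genes (y axis) in the 3 WT (blue) and 3 Tg (red) arrays, with marker shapes for the replicate number and the group mean ± SD in black. Every panel spans the same 1.5 log2 units: the Vldlr groups are apart, the Gpihbp1 and Slc27a1 arrays spread widely within each group, and Lpl, Cd36, Fabp4 and Fabp5 lie close together.

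That the tissue labelled eWAT holds adipocytes was checked with 9 measured adipocyte markers (of 10 listed). Among them were Adipoq (9.21 to 10.40 over the 6 arrays), Plin1 (8.64 to 9.58) and Plin4 (9.57 to 10.55). The adipocyte markers were not chosen to tell fat depots apart, so the depot was not checked with them. The signal of these 9 markers summed on the linear scale was 9244 to 11591 in WT and 11817 to 14728 in Tg. The 10 endothelial markers summed to 2480 to 3666 in WT and 3668 to 4254 in Tg. The 10 macrophage markers summed to 13622 to 14455 in WT and 11842 to 12188 in Tg, and the 8 mast cell markers to 1263 to 2432 and 612 to 868. The 6 T cell markers summed to 155, 483 and 730 on WT 1 to WT 3 and to 271, 179 and 146 on Tg 1 to Tg 3. Transcripts of the epididymis itself were present on some arrays: 15 measured markers (of 18) summed to 4570 on Tg 2 and to 34.3 to 50.1 on the other arrays. Gpx5 (10.77) and Lcn9 (9.87) were the brightest of them on Tg 2. Not all followed: Lcn5, Rnase9, Spink11 and Spint4 were not highest on Tg 2, and Defb21 read 1.38 there. Spink8, Serpina1f and Defb42, which were chosen after their values were seen, summed to 210.0 on WT 2, 596.0 on WT 3 and 58.8 on Tg 2, and to 7.12 to 7.56 on WT 1, Tg 1 and Tg 3. The part of these differences between arrays in the results below was not tested, and with bulk tissue fewer cells of a type and less RNA per cell cannot be told apart.

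Lpl, the lipase gene itself, showed no separation of the genotypes in its bright row. WT 1 to WT 3 read 11.93, 11.83 and 11.80, and the Tg mice, in the same order, 11.89, 11.83 and 11.98. The groups overlapped, with WT 3 lowest and Tg 3 highest, and the whole range over the 6 mice was 0.18. The difference was 0.05 ± 0.10 (SE, n = 3 per group), and its 95% interval of -0.19 to 0.28 corresponds to a ratio between 0.88 and 1.21. A second, dimmer row named Lpl alone and gave another picture, with 7.59, 7.55 and 7.64 in WT and 7.76, 8.31 and 7.85 in Tg. There each Tg array exceeded each WT array, Tg 2 by the most, and the difference was 0.38 ± 0.16, with an adjusted p of 0.49 in limma. Without Tg 2, the array rich in epididymis transcripts, the difference in this row was 0.21. Which part of the transcript either row detects is not given in the sources used here, so the rows are reported side by side.

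The bright signals of Lpl, Cd36 and Fabp4 stood near the top of the scale, whose highest value anywhere in the table was 12.9. Among the 156 rows with a mean of 11 or more the median size of the Tg to WT difference was 0.10 and its 95th percentile 0.35, while the 6515 rows with means from 6.5 to 10, where the other 6 members lie, had 0.13 and 0.54. Whether the small differences of the 3 genes come from a compressed scale was not tested.

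Lmf1 encodes the endoplasmic reticulum protein that lets lipases fold and dimerize. It read 7.25, 7.20 and 7.21 in WT and 7.39, 7.28 and 7.27 in Tg. All Tg mice lay above all WT mice, but the gap between the groups was 0.03, and the difference of 0.10 ± 0.09 had an adjusted p of 0.75 in limma. Its 95% interval ran from -0.12 to 0.31, and without Tg 1 the difference was 0.06. The WT arrays were tight, with an SD of 0.02 against 0.06 in Tg.

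Gpihbp1, the endothelial anchor that moves the lipase to the capillary lumen, had the widest range over the 6 mice of the 9 brightest rows. WT 1 to WT 3 read 7.27, 6.89 and 6.70, and Tg 1 to Tg 3 read 7.71, 7.03 and 7.31. Tg 1 was the highest and WT 3 the lowest, 1.01 apart, and Tg 2 lay below WT 1, so the groups overlapped. The difference of 0.40 ± 0.22 (1.32-fold) had an adjusted p of 0.58 in limma, and its interval of -0.13 to 0.93 spans ratios from 0.92 to 1.90. Leaving out Tg 1 brought it to 0.22, and leaving out WT 1 or Tg 2 brought it to 0.56. With WT 1, Tg 1 and Tg 3 alone it was 0.24, a value that rests on 1 WT mouse. These arrays had the lowest sums of Spink8, Serpina1f and Defb42, genes chosen after their values were seen. By the 15 listed epididymis markers, WT 2 and WT 3 (44.9 and 44.2) read below Tg 1 (50.1).

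Around lipase maturation, trafficking and anchoring, 11 further genes were measured. Of these, 9 were higher and 2 lower in Tg, with a median difference of 0.06, and 0 passed in either direction (2 at an unadjusted p under 0.05, both higher). Sort1, the sorting receptor sortilin, had all Tg mice above all WT mice, with a difference of 0.36 ± 0.12 and an adjusted p of 0.41 in limma. The proprotein convertase gene Pcsk6 was likewise apart (0.44 ± 0.18, and 0.28 without Tg 1). Pcsk5, of the same enzyme family, overlapped (0.43 ± 0.21), and Tg 2 was its highest array at 6.13. Without Tg 2 its difference was 0.21. Furin, which also cuts angiopoietin-like proteins, read -0.02 ± 0.10, and Sel1l, of the degradation complex that handles the lipase, 0.02 ± 0.09.

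Angptl4, the fasting-induced inhibitor that unfolds the lipase, had the smallest unadjusted p of the 9 after Vldlr, 0.071. It read 9.59, 9.28 and 9.18 in WT and 9.72, 9.55 and 9.66 in Tg. The Tg mice were close together (SD 0.09) and above WT 2 and WT 3, but WT 1 exceeded Tg 2 by 0.04, so the groups overlapped. The difference was 0.29 ± 0.13 (1.22-fold) with an adjusted p of 0.52 in limma and an interval of -0.03 to 0.62. It was 0.41 without WT 1 and 0.21 without WT 3. Against WT 1 alone, with Tg 1 and Tg 3, it was 0.10.

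Of the 7 other regulators and apolipoproteins measured, 4 were higher and 3 lower in Tg, and 0 passed (1 at an unadjusted p under 0.05, Apoc1), with a median of 0.01. Apoc1, an apolipoprotein that restrains lipase and receptor uptake, read 5.94, 6.19 and 5.87 in WT and 6.94, 6.28 and 6.52 in Tg. The groups did not overlap, and the difference was 0.58 ± 0.19 with an adjusted p of 0.41 in limma. Angptl8, a feeding-induced partner of the inhibitors, read 4.67, 4.74 and 4.61 in WT and 5.22, 4.72 and 5.24 in Tg, so Tg 2 stayed among the WT mice while Tg 1 and Tg 3 were higher (0.39 ± 0.16). Apoe, the receptor ligand that macrophages also make, was the other gene with groups apart, lower in Tg (-0.19 ± 0.11, and -0.12 without Tg 3). Apoc2, the activator of the lipase, read -0.18 ± 0.17.

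Vldlr, the receptor that docks triglyceride-rich lipoproteins beside the lipase, stood furthest apart among the members. WT 1 to WT 3 read 7.44, 7.45 and 7.10, and Tg 1 to Tg 3 read 8.01, 7.69 and 7.92. Each Tg mouse lay above each WT mouse, with a gap of 0.24 between the highest WT and the lowest Tg array. The difference was 0.54 ± 0.15 (1.46-fold, 95% interval 1.14 to 1.86), with an unadjusted p of 0.0083 and an adjusted p of 0.35 in limma, which is not past the threshold. With each array left out in turn the difference ran from 0.43 without WT 3 to 0.64 without Tg 2. With the arrays WT 1, Tg 1 and Tg 3 alone the difference was 0.53.

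Of 5 further lipoprotein receptor genes measured, 2 were higher and 3 lower in Tg, with a median of -0.05 (0.02 with median centring or quantile scaling), and 0 passed (2 at an unadjusted p under 0.05, both lower). Lrp8, the closest relative of Vldlr and like it a reelin receptor, read 4.59, 5.43 and 4.71 in WT and 3.99, 3.77 and 3.56 in Tg. All Tg mice were below all WT mice, and the difference was -1.13 ± 0.24 with an adjusted p of 0.33 in limma. Lrp1, a large endocytic receptor of adipocytes and macrophages, was also apart and lower in Tg (9.92, 9.79 and 9.87 against 9.52, 9.46 and 9.50, a difference of -0.36 ± 0.09). Lrpap1, the chaperone of this receptor family, was apart and higher in Tg, by 0.24 ± 0.12, and by 0.15 without WT 3. The 10 macrophage markers were all lower in Tg, with a median of -0.26, and the part of this in the values of Lrp1 and Apoe was not tested.

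**Figure D2:**
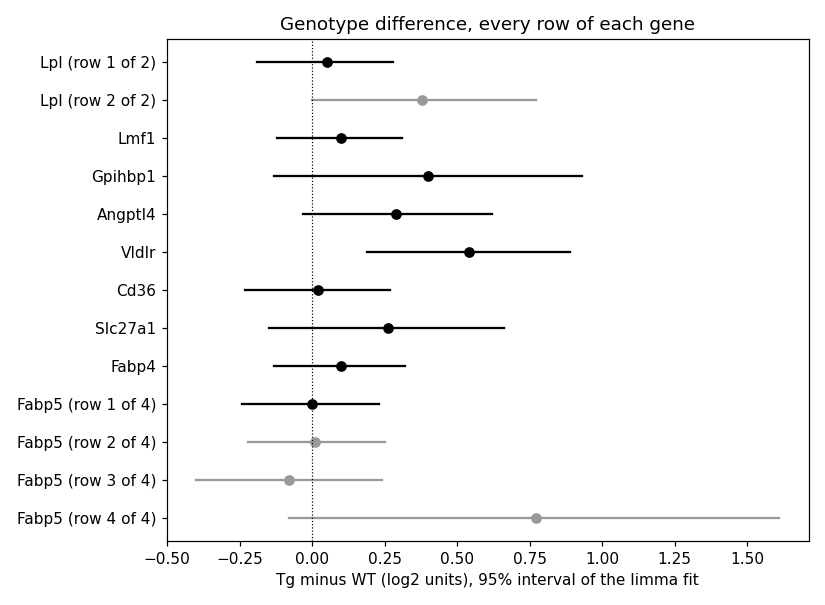
Tg minus WT difference in log2 units (x axis) with the 95% interval of the limma fit, for every row that names a member alone (y axis). Black marks the brightest row of each gene and grey its other rows: the Vldlr interval lies above 0, and the other brightest rows have intervals that include 0.

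Of the carriers at the cell membrane, Cd36 read 12.06, 12.25 and 12.03 in WT and 12.14, 12.06 and 12.20 in Tg. The highest and the lowest mouse were both WT, and the difference was 0.02 ± 0.11, with an interval of -0.23 to 0.27. It changed sign with WT 1, WT 3 or Tg 3 left out (-0.01, -0.02 and -0.01) and with quantile or cyclic loess scaling (-0.02 in both).

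Slc27a1 encodes FATP1, an insulin-responsive fatty acid transporter with acyl-CoA synthetase activity. It read 9.42, 9.06 and 8.96 in WT and 9.62, 9.19 and 9.41 in Tg. Tg 1 was the highest, but WT 1 lay above both Tg 2 and Tg 3, so the groups overlapped. The difference was 0.26 ± 0.17 (1.2-fold) with an adjusted p of 0.64 in limma and an interval of -0.15 to 0.66. It was 0.39 without WT 1, 0.15 without Tg 1 and 0.17 without WT 3. In WT 1, Tg 1 and Tg 3 alone it was 0.09.

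The other genes of membrane transport included 12 measured ones, of which 9 were higher and 3 lower in Tg, with a median of 0.18, and 0 passed (3 at an unadjusted p under 0.05, 2 of them higher). Cavin1, which shapes the caveolae in which adipocyte CD36 resides, was apart, at 8.49, 8.21 and 8.16 in WT and 9.10, 8.73 and 8.88 in Tg. Its difference was 0.62 ± 0.14, with an adjusted p of 0.34 in limma. Cav2, a caveolar coat protein, was also apart (0.29 ± 0.11), as was Cav1 (0.25 ± 0.11), which was named after its values were seen. Slc27a6, another transporter of the FATP family, was apart and lower in Tg (-0.53 ± 0.20). Its lowest array was Tg 1 at 3.37, without which the difference was -0.30.

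Fabp4 encodes the main fatty acid binding protein of adipocytes, also found in capillary endothelium and macrophages. It read 12.20, 12.25 and 12.19 in WT and 12.23, 12.31 and 12.38 in Tg. Tg 2 and Tg 3 were above all WT mice, and Tg 1 lay below WT 2 by 0.01. The difference was 0.10 ± 0.09 with an adjusted p of 0.75 in limma, and its interval of -0.13 to 0.32 corresponds to ratios from 0.92 to 1.25. Without Tg 3 the difference was 0.06.

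Fabp5, the epidermal form found beside Fabp4 in macrophages, endothelium and adipocytes, read 8.96, 8.86 and 8.77 in WT and 8.87, 8.84 and 8.88 in Tg. The Tg values lay inside the WT range, and the difference was 0.00 ± 0.10 with an interval of -0.24 to 0.23. Its sign depended on the setting, among them the scaling, with 0.06 under median centring and 0.01 under quantile scaling. The gene had 4 rows. The second brightest gave 0.01 ± 0.10 and the third -0.08 ± 0.13, while the dimmest read 5.42, 4.32 and 4.92 in WT and 5.25, 6.23 and 5.49 in Tg, with overlapping groups and a difference of 0.77 ± 0.35. Without Tg 2, its highest array, that row differed by 0.48, and in WT 1, Tg 1 and Tg 3 alone by -0.05. Rows of a gene can share sequence with other copies, so these are uncertain.

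Of the 9 other binding proteins measured, 5 were higher and 4 lower in Tg, with a median of 0.03; 0 passed and 0 had an unadjusted p under 0.05. Dbi, the acyl-CoA binding protein, read 5.24, 5.06 and 5.12 in WT and 5.58, 5.09 and 5.64 in Tg (0.30 ± 0.17), so here too Tg 2 remained within the WT range. Without Tg 2 its difference was 0.47. Fabp7, the brain-type protein, read -0.33 ± 0.18, and -0.16 without Tg 1. The liver-type Fabp1, whose signal was 1.67 or less on every array, read 0.26 ± 0.22, and 0.03 without Tg 3.

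**Figure D3:**
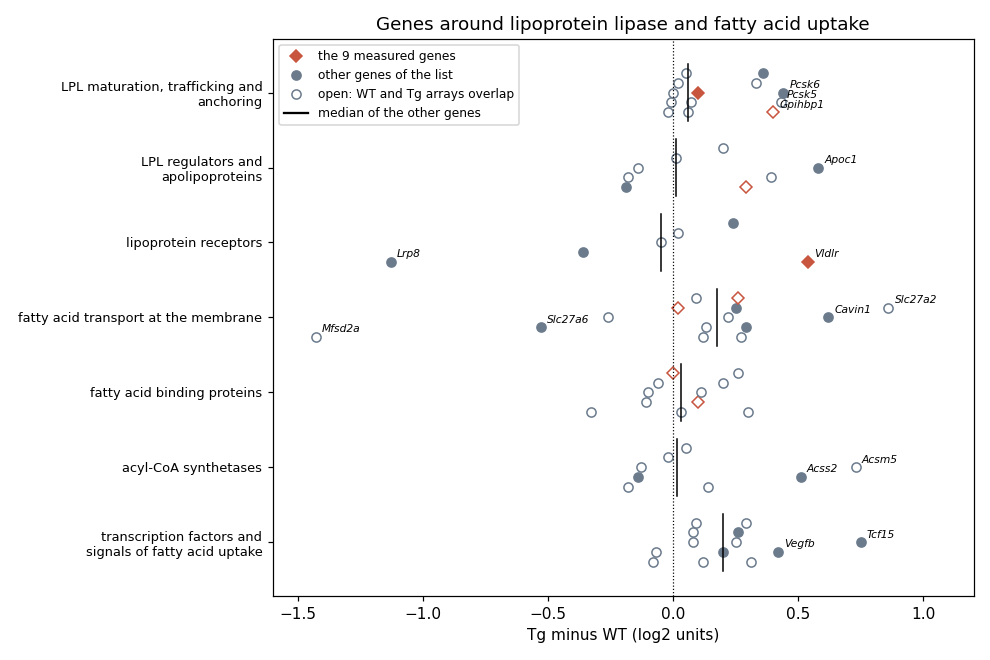
Tg minus WT difference in log2 units (x axis) of each measured gene in the 7 lists (y axis). Red diamonds are members, grey circles the other genes, filled symbols mark genes whose WT and Tg arrays do not overlap, and vertical bars the median of the other genes, which runs from -0.05 in the lipoprotein receptors to 0.20 in the transcription factors and signals. Lrp8 and Vldlr lie on opposite sides of 0.

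Acyl-CoA synthetases trap fatty acids inside the cell by activating them, and 8 genes of this list of 11 were measured. Of these, 4 were higher and 4 lower in Tg, with a median of 0.01, and 0 passed (2 at an unadjusted p under 0.05, both higher). Acss2, which activates acetate and not long-chain fatty acids, was apart (0.51 ± 0.13). Acsm5, a medium-chain enzyme, read 4.21, 3.83 and 3.08 in WT and 4.61, 4.18 and 4.52 in Tg, with WT 1 just above Tg 2 (0.73 ± 0.29, and 0.42 without WT 3). The long-chain enzyme gene Acsl5 was apart in the other direction, at -0.14 ± 0.11. It read 8.18 in each WT mouse and 8.12, 7.85 and 8.13 in Tg. Without Tg 2 the difference was -0.05, and with median centring it was -0.08 and the groups overlapped.

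Transcription factors and signals that govern fatty acid uptake had a median of 0.20 over 13 genes. Of these, 11 were higher and 2 lower in Tg, and 0 passed (2 at an unadjusted p under 0.05, both higher). Tcf15, which with Meox2 drives Cd36, Lpl and Fabp4 in capillary endothelium, read 6.57, 6.31 and 5.76 in WT and 7.20, 6.72 and 6.96 in Tg. The groups were apart, with a difference of 0.75 ± 0.23 and an adjusted p of 0.38 in limma. Vegfb, the growth factor linked to endothelial fatty acid transport, was apart (0.42 ± 0.16, and 0.27 without Tg 1), as was Pparg, the adipocyte receptor that controls Lpl, Fabp4, Cd36 and Angptl4, at 9.06, 9.0 and 8.89 in WT and 9.38, 9.08 and 9.26 in Tg (0.26 ± 0.12, adjusted p of 0.52 in limma). Median differences without WT 3 were 0.09 for this list and 0.11 for the transport list.

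Over all 7 lists, 65 genes other than the members were measured, of which 44 were higher and 21 lower in Tg, with a median of 0.09. Groups were apart in 12 with Tg higher and in 5 with Tg lower. Of all 22184 genes by their brightest row, 11100 were higher in Tg. Groups were apart with Tg higher in 8.85% of these genes and in either direction in 18.2% (16.7% of all rows). The scaling moved the overall balance: of the rows at an unadjusted p under 0.05, 43.0% were higher in Tg with the deposited values, 64.7% with arrays centred on their medians, 54.4% after quantile and 49.8% after cyclic loess scaling.

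Across mice, the order of the arrays was not that of genotype alone, and it was not the same in all members. WT 3 was the lowest of the 6 arrays in 8 of the 9 members, all but Lmf1, and Tg 2 was the lowest Tg array in 7. Tg 1 was the highest of the 6 in 5 members. WT 1 lay above Tg 2 in 6 of the 9. How many of all rows hold these ranks was not counted. In Gpihbp1 and Angptl4 the order from the lowest was WT 3, WT 2, Tg 2, WT 1, Tg 3 and Tg 1, and in Slc27a1 it was the same except that Tg 3 lay just below WT 1. The mean deviation of the 9 members from their average was 0.02, -0.09 and -0.22 in the WT mice and 0.18, -0.01 and 0.12 in the Tg mice. The adipocyte markers, none of which is a member, gave -0.01, -0.23 and -0.44 and then 0.41, 0.01 and 0.26. The endothelial markers gave 0.12, -0.12 and -0.50 and then 0.37, 0.03 and 0.11. All 9 adipocyte markers were higher in Tg, by a median of 0.42 with groups apart in 7. All 10 endothelial markers were also higher, by a median of 0.33 with groups apart in 2. Of all genes by their brightest row, 8.85% were apart with Tg higher. The part of the adipocyte and endothelial markers in the values of the members was not tested.

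**Figure D4:**
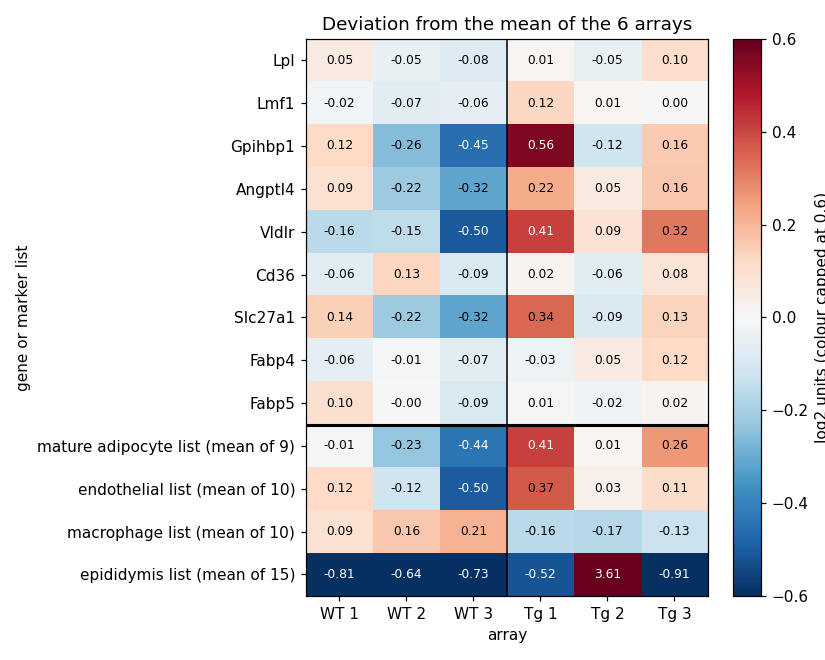
Deviation of each array (x axis) from the mean of the 6 arrays, in log2 units, for the 9 members (upper rows) and the mean of 4 marker lists (lower rows). WT 3 is the lowest column in 8 of the 9 members, as it is in the adipocyte and endothelial lists; the epididymis list is high on Tg 2 only.

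Pairs of members followed each other to different degrees over the 6 arrays, which share their genotype groups and scaling. As a description, Pearson's r was 0.99 between Gpihbp1 and Slc27a1 and 0.94 between Angptl4 and Slc27a1. It was 0.76 between Lpl and Angptl4, 0.32 between Lpl and Cd36 and 0.09 between Fabp4 and Fabp5. Genes outside the set with the profile most like that of Vldlr were Car5b, a mitochondrial carbonic anhydrase (r = 0.998), Adipor2, an adiponectin receptor, and Enpp5 (both 0.997), among 8407 genes whose SD was at least 0.5 times that of Vldlr. Closest to Angptl4 were Wdr60 (0.998), Rnf215 and the caveolar protein gene Cavin3 (both 0.997), among 13622 genes. Closest to Lpl were the lysyl oxidase gene Loxl4 (0.997), Krtap12-1 (0.989) and Cdh15 (0.988), among 17345. With 6 arrays such values are common: 602 genes reached 0.9 or more with Vldlr, 733 with Angptl4 and 125 with Lpl.

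**Figure D5:**
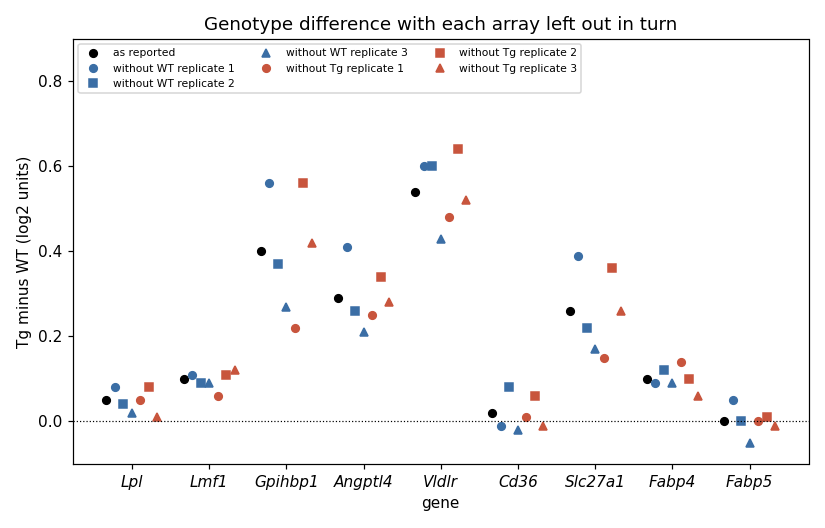
Tg minus WT difference in log2 units (y axis) for each member (x axis) over all 6 arrays (black) and with each WT (blue) or Tg (red) array left out. Vldlr stays between 0.43 and 0.64, Gpihbp1 between 0.22 and 0.56, and Cd36 and Fabp5 lie on both sides of 0.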

How the data were processed

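RNA of 6 eWAT samples was labelled from 400 ng total RNA for Affymetrix whole-transcript arrays. The deposited values are log2 values; RMA (background correction, normalization between arrays, probe summary) and limma are named in the submitters' processing notes, while versions, filters and build are not given in the sources used here. Array medians were 2.64 to 2.75. RMA hides changes of total RNA and compresses low signals. The platform annotation named 1 gene in 23525 rows, several in 1810 and none in 16010. Groups were compared with limma 3.58.1 in R 4.3.3 (lmFit, eBayes, 2-sided, all rows, no filter or covariate). The fit was also run on simulated rows with no shared array effects and with changes larger than that of any member. That run does not cover differences of the members' size. Differences are Tg minus WT with the SE of the fit.

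The members and lists were chosen with earlier results of these data known. Named were all members, the 3 genes of smallest p in each list, and the 3 genes most correlated with Lpl, Angptl4 and Vldlr (models without a name and small RNA genes left out); other names were chosen after their values were seen. Alternatives left out each array, added a replicate block, rescaled, filtered or weighted.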

Additional observations from a re-analysis of the deposited data

How the results depend on the processing

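Under 16 alternatives 0 rows and 0 members passed the threshold of limma, with 2246 to 5089 rows at an unadjusted p under 0.05, and the lowest adjusted p of a member was 0.24, that of Vldlr without dim rows. Lpl, Lmf1, Gpihbp1, Angptl4, Vldlr, Slc27a1 and Fabp4 kept their sign in all of them. Cd36 read -0.02 after quantile and after cyclic loess scaling and ran from -0.02 to 0.08 with single arrays left out. Fabp5 ran from -0.05 to 0.05 with single arrays left out and read 0.06 with median centring, 0.01 after quantile scaling, 0.00 with array weights and 0.18 over the mean of its rows. Its row of next lower signal read -0.03 to 0.07 and the one after it -0.20 to 0.01 with single arrays left out. In WT 1, Tg 1 and Tg 3 alone, the former read -0.09 and the dimmest row -0.05. Members apart with Tg higher numbered 2 to 5 with single arrays left out, where 11.1% to 14.0% of all rows were. In WT 1, Tg 1 and Tg 3 alone, 6 members were apart with Tg higher and 1, Fabp5, with Tg lower, where 33.4% and 34.3% of all rows were. The median of the members was 0.21 over the mean of each gene's rows. The list medians moved to 0.13 (median centring) and 0.22 (mean of rows) for maturation and anchoring, 0.00 to 0.09 with single arrays left out; to 0.42 in WT 1, Tg 1 and Tg 3 alone for the regulators; to -0.10 without dim rows for the binding proteins, of which 3 were left; and to 0.08 for the synthetases with median centring and with the mean of rows. Centring arrays on their medians shifts every Tg minus WT difference by the same amount. With it the median over all rows moved from -0.01 to 0.05. Beyond this shift, fewer arrays, fewer genes and the rows averaged, the cause was not tested. Arrays of equal replicate number did not deviate alike (correlations of deviations -0.04, 0.01 and -0.04), and no array correlated best with its own number. The other combinations gave -0.03 to 0.07, and such values cannot show whether the mice were paired. With the replicate block 0 rows passed, 4034 had an unadjusted p under 0.05, and Vldlr kept 0.54 with an adjusted p of 0.45 in limma.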

Other observations

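Mfsd2a, a lysophosphatidylcholine transporter of the membrane list, read 4.85 on WT 2, 6.44 on WT 3 and 6.5 on Tg 2, and 2.62, 1.94 and 1.18 on WT 1, Tg 1 and Tg 3. The first 3 of these are the arrays on which the epididymis genes Spink8, Serpina1f and Defb42 had the highest summed signal. On Tg 2 that sum came mostly from Defb42 (5.64), while Spink8 read 2.53 and Serpina1f 1.66 there. Slc27a2, a FATP gene of liver and kidney, was highest on Tg 2 (4.17) and lowest on WT 1 (1.33). Both genes were singled out after their values were seen.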
